A study of Mus musculus with 6 samples.

Results

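The genes of 8 chemokines, Ccl2, Ccl5, Ccl7, Cxcl1, Cxcl5, Cxcl10, Cxcl12 and Cx3cl1, and of the growth factor Csf1 were followed in RNA-seq of C3H10T1/2 cells. They were taken by symbol from a table of 20325 genes, and all 9 were found in it. C3H10T1/2 is a multipotent mesenchymal line from C3H mouse embryos. Knockdown cells (3 libraries) were given small interfering RNAs targeting Ring1a and Ring1b, the ubiquitin ligases of Polycomb repressive complex 1, and control cells (3 libraries) a scrambled small interfering RNA; all were parental cells of this line at passage 10 to 15, grown in medium with fetal bovine serum. The labels number the libraries but name no separate cultures, so the p-values reflect only the spread among these libraries, which may be technical. Unless a sentence says otherwise, values are normalized read counts, that is, estimated read counts that the authors divided by a size factor per library. A log2 fold change is knockdown minus control on log2(value + 1), which understates the change of low genes.

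Chemokines are small secreted proteins that draw leukocytes along a gradient by binding G protein-coupled receptors. Their classes are named for the spacing of conserved cysteines. CC chemokines such as Ccl2 act mainly on monocytes and T cells, CXC chemokines such as Cxcl1 on neutrophils, and Cxcl12 on blood stem cells, lymphocytes and many other cells. Csf1 is no chemokine: it is the main survival and growth factor of macrophages, acting through the receptor tyrosine kinase Csf1r. Mesenchymal cells are a known source of Cxcl12, Ccl2 and Csf1, and several inflammatory chemokine genes are classical targets of the transcription factor NF-kappaB.

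Rnf2, which encodes Ring1b, stood at 129, 76.5 and 152 in knockdown replicates 1, 2 and 3, against 815, 829 and 799 in the controls. Ring1b RNA was thus far lower in every knockdown (log2 fold change -2.82, SE 0.28, limma adjusted p = 0.00946), a call lost without knockdown replicate 1 (limma adjusted p = 0.0646) or any control (0.0735, 0.0742 and 0.0852 without control replicates 1, 2 and 3). Ring1, which encodes Ring1a, stood at 162, 268 and 186, against 336, 386 and 374, lower in every knockdown without passing the threshold (log2 fold change -0.86, SE 0.23, limma adjusted p = 0.104). It passed without knockdown replicate 2 (-1.06, limma adjusted p = 3.86e-06), under total scaling (-0.999, limma adjusted p = 0.0441) and with library weights (-1.08, limma adjusted p = 7.04e-07). In bulk RNA, fewer cells of a type and less RNA per cell cannot be told apart. Estimated depth was 23.2, 4.58 and 18.5 M reads in knockdown replicates 1, 2 and 3 and 51.8, 5.45 and 15.1 M reads in the controls, so 1 read is worth 4.25 in knockdown replicate 2 but 0.259 in control replicate 1. Knockdown replicate 2 stood apart: its log2 values correlated with those of the other libraries at 0.821 to 0.867 (across genes), against 0.944 to 0.993 for every pair of the others. Results are therefore given with and without it. All 12 mesenchymal markers were expressed above the filter, at sums of 306940 to 464172 in the knockdowns and 412984 to 436530 in the controls, most of it from Col1a1, Col1a2, Col3a1 and Vim. Within that list Eng, which encodes the coreceptor endoglin, rose (log2 fold change 0.88, limma adjusted p = 0.0377) and 0 members fell. Over all genes in the same fit, 3.2% rose and 1.78% fell. Without knockdown replicate 2 the list had 8 members higher and 3 lower, in a fit where 23.8% of all genes rose and 26.1% fell. Those lower were Pdgfra, Vim and Pdgfrb (log2 fold changes -0.92, -0.91 and -0.46, limma adjusted p = 1.78e-06, 3.53e-07 and 6.06e-05).

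Of the 9 genes, 7 had a mean of at least 10 over the 6 libraries and were tested in a fit across 12085 genes. Csf1, Ccl7 and Cxcl1 rose, and 0 fell, by limma with a Benjamini-Hochberg threshold of 0.05 (5 higher and 0 lower at an unadjusted p under 0.05). Over all genes tested, 3.2% rose and 1.78% fell, 4.98% in all. At an unadjusted limma p under 0.05 there were 2473 of the 12085 genes in either direction, and 6655 of 11995 without knockdown replicate 2. These shares also belong beside the counts of the related lists below. The median log2 fold change was 1.05 for the 7 genes and 0.01 for all genes tested. Ccl7 reached the mean of 10 only through the knockdowns (53.6 against 7.29 in the controls), so its place in these counts is partly set by the filter. All 3 knockdowns lay above all 3 controls in 5 of the 7, namely Csf1, Ccl7, Cxcl1, Ccl2 and Cxcl12, against 20.5% of all genes tested; 0 of the 7 lay the other way, against 23.7%. Without knockdown replicate 2 all but Cxcl5 passed, so that 6 of the 7 rose and 0 fell (0 lower at an unadjusted p under 0.05), in a fit where 23.8% of 11995 genes rose and 26.1% fell, 49.9% in all. Without knockdown replicate 1 or 3, 0 of the 7 passed in limma, while over all genes 7 and 37 passed in the higher direction and 21 and 57 in the lower, and without any of the 3 control libraries limma called 0 genes. Scaling every library to the same total shifted the median of all genes to -0.14, so folds are relative to the authors' median.

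**Figure D1:**
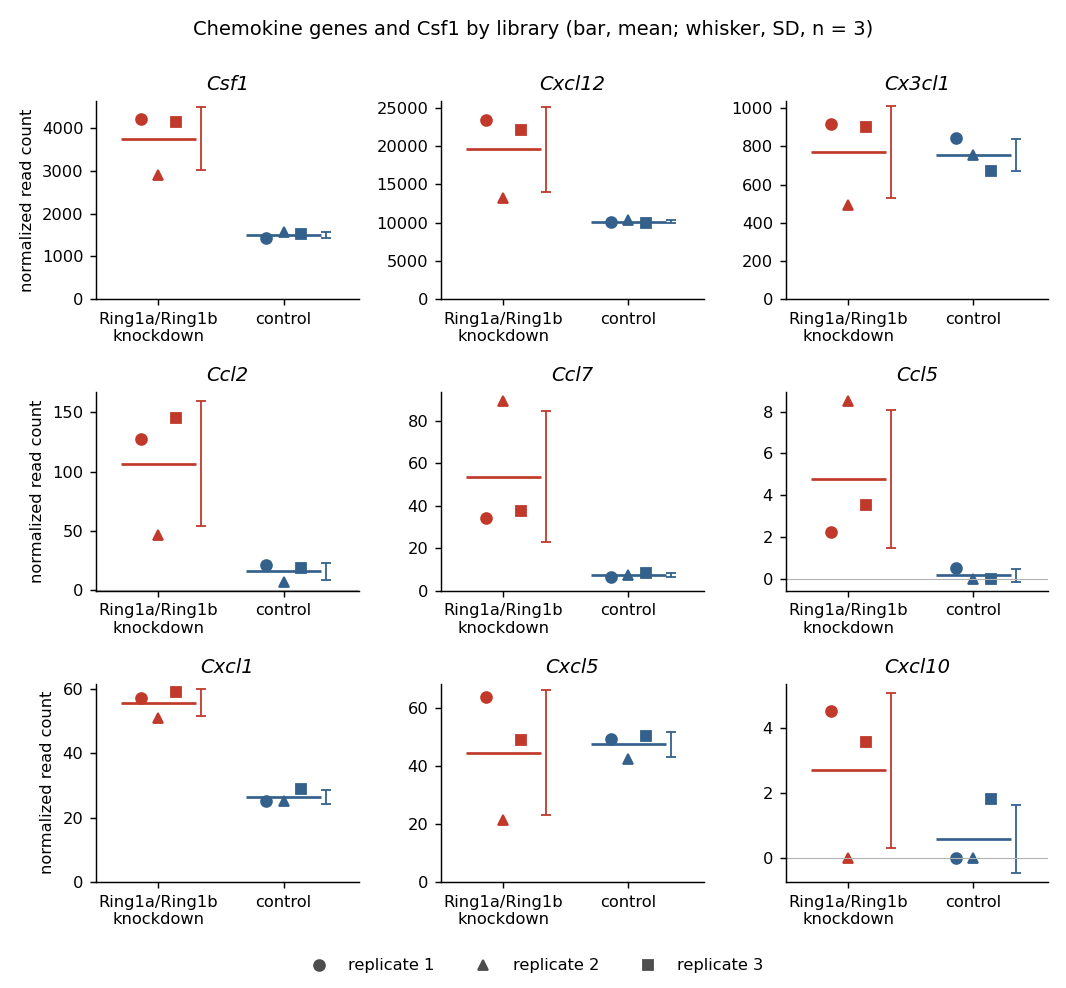
Normalized read count (y axis, linear, a scale for each panel) of the 9 genes in the 3 knockdown libraries (red) and the 3 control libraries (blue); marker shapes are replicate numbers, bars are means and whiskers SDs (n = 3). In Csf1, Cxcl12, Ccl2, Ccl7, Ccl5 and Cxcl1 every knockdown lies above every control, and knockdown replicate 2 (triangle) is the lowest knockdown in Csf1, Cxcl12, Cx3cl1, Ccl2, Cxcl1, Cxcl5 and Cxcl10 and the highest in Ccl7 and Ccl5.

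Csf1, the macrophage growth factor, rose in the knockdowns. It stood at 4219, 2912 and 4143 in knockdown replicates 1, 2 and 3, against 1432, 1569 and 1523 in control replicates 1, 2 and 3. The controls lay close together, and even the lowest knockdown, replicate 2, was well above them. The means were 3758 ± 733 in the knockdowns and 1508 ± 69.7 in the controls (SD, n = 3 each), a ratio of 2.49 (log2 fold change 1.30, SE 0.19, limma adjusted p = 0.0225). Without knockdown replicate 2 the log2 fold change was 1.47 (SE 0.05, limma adjusted p = 3.31e-09). Csf1 missed the threshold without any other library, with limma adjusted p-values of 0.107 and 0.0878 without knockdown replicates 1 and 3 and of 0.141, 0.132 and 0.150 without control replicates 1, 2 and 3, as it did under total scaling (0.178). At least 626 estimated reads lay behind each Csf1 value, so counting error is small here.

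Cxcl12 encodes the ligand of the receptors Cxcr4 and Ackr3 and was the most abundant of the 9, also per length. It stood at 23462, 13180 and 22113 in knockdown replicates 1, 2 and 3, against 10039, 10327 and 9934 in the controls. Knockdown replicates 1 and 3 were far above every control, while knockdown replicate 2 lay nearer to the controls than to them. The means were 19585 ± 5588 in the knockdowns and 10100.1 ± 204 in the controls (SD, n = 3 each). The difference missed the threshold with all 6 libraries (log2 fold change 0.91, SE 0.27, limma adjusted p = 0.132) and passed without knockdown replicate 2 (1.17, SE 0.06, limma adjusted p = 2.12e-08). Cxcl12 made up 81.2, 78.4 and 80.5% of the summed normalized counts of the 9 genes in the knockdowns and 80.9, 81.1 and 81.2% in the controls.

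Per kilobase of the median protein-coding transcript in GENCODE M21, the level of Cxcl12 averaged 6253 normalized counts in the knockdowns and 3225 in the controls. Cx3cl1 averaged 1642 and 1608 per kilobase, and Csf1 2562 and 1028. Cx3cl1 and Csf1 changed places in the controls when the longest transcript was used instead, an option added after seeing the data, with 228 for Cx3cl1 and 361 for Csf1. The median length of Cx3cl1 is 470 nt among transcripts of 377 to 3315 nt. The remaining genes were far lower: the control means per kilobase were 30.2 for Cxcl5, 27.7 for Cxcl1, 19.7 for Ccl2, 9.10 for Ccl7, 0.492 for Cxcl10 and 0.324 for Ccl5. Among the controls, Cxcl5, Cxcl1 and Ccl2 were neighbours in this order within their spread (SDs of 2.74, 2.31 and 9.16 per kilobase).

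Ccl2 and Ccl7, which encode the monocyte chemoattractants MCP-1 and MCP-3, had the largest log2 fold changes of the 7 genes. Ccl2 stood at 128, 46.8 and 146 in knockdown replicates 1, 2 and 3, against 21.5, 7.52 and 19.0 in the controls. The groups did not overlap, but within each group replicate 2, the shallowest of its group, was the lowest, with 11 estimated reads in knockdown replicate 2 and only 3 such reads in control replicate 2. Ccl2 averaged 107 ± 52.7 in the knockdowns and 16.0 ± 7.45 in the controls (SD, n = 3 each), a ratio of 6.67. It missed the threshold (log2 fold change 2.63, SE 0.59, limma adjusted p = 0.0717), although its log2 fold change exceeded that of 99.3% of genes tested. It did pass without knockdown replicate 2, with a log2 fold change of 3.14 (SE 0.38, limma adjusted p = 0.000134).

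Ccl7 stood at 33.9, 89.3 and 37.7 in knockdown replicates 1, 2 and 3, against 6.21, 7.52 and 8.13 in the controls. Here knockdown replicate 2 was the highest library and the groups were far apart. The means were 53.6 ± 30.9 in the knockdowns and 7.29 ± 0.98 in the controls (SD, n = 3 each), a ratio of 7.36. Ccl7 rose (log2 fold change 2.59, SE 0.42, limma adjusted p = 0.0324), and also without knockdown replicate 2, at 2.16 (SE 0.32, limma adjusted p = 0.000151), where the ratio of means was 4.91. The call was lost without any other library, at limma adjusted p-values of 0.0940 and 0.0880 without knockdown replicates 1 and 3 and of 0.154, 0.146 and 0.160 without control replicates 1, 2 and 3. Behind the values of Ccl7 lay 60, 21 and 53 estimated reads in the knockdowns and 24, 3 and 9 in the controls.

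In the authors' deposited table of differential genes, which holds 231 genes with folds of at least 4.01 upward and 92 with folds of at least 4.13 downward (1.59% of all genes), Ccl2 is listed at a fold of 6.74 and Ccl7 at 7.49. These were 2 of the 9 genes; the ratio of means of the other tested genes was at most 2.49. Ccl2 and Ccl7 are neighbouring genes on chromosome 11. The genes that follow Ccl7, in order, are Ccl11 and Ccl12, listed at 0 in all 6 libraries, and Ccl8, at 0.565, 4.25 and 0 in the knockdowns and 0 in every control. The ratio of Ccl2 to Ccl7 was 3.77, 0.524 and 3.87 in knockdown replicates 1, 2 and 3, and 3.46, 1.0 and 2.33 in the controls. In both groups, replicate 2 had the lowest ratio.

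Ccl5, which encodes the T cell and monocyte attractant RANTES, was at the edge of detection. It stood at 2.26, 8.50 and 3.55 in knockdown replicates 1, 2 and 3, against 0.518, 0 and 0 in the controls. All knockdown values were higher, but they came from 4, 2 and 5 estimated reads, against 2, 0 and 0. A floor of 3 reads corresponds to 1.70, 12.8 and 2.13 in the knockdowns and to 0.777, 7.52 and 2.71 in the controls, so the control values lie under it throughout and no fold is given. Ccl5 had a mean under 10 and was not tested; the exact two-sided permutation test over libraries gave p = 0.1, the smallest that 3 against 3 allows.

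Cxcl1, known in mouse as KC, attracts neutrophils through Cxcr2. It stood at 57.1, 51.0 and 59.0 in knockdown replicates 1, 2 and 3, against 25.1, 25.1 and 28.9 in the controls. The libraries of each group lay close together, knockdown replicate 2 included, and the groups did not overlap. The means were 55.7 ± 4.16 in the knockdowns and 26.4 ± 2.20 in the controls (SD, n = 3 each), a ratio of 2.11 (log2 fold change 1.05, SE 0.19, limma adjusted p = 0.0408). Without knockdown replicate 2 the log2 fold change was 1.11 (SE 0.21, limma adjusted p = 0.000865). The call was lost without any other library, at limma adjusted p-values of 0.167 and 0.146 without knockdown replicates 1 and 3 and of 0.204, 0.180 and 0.187 without control replicates 1, 2 and 3, and under total scaling (0.194), upper-quartile scaling (0.0635) or no filter on low values (0.0528). Behind the values of Cxcl1 lay 101, 12 and 83 estimated reads in the knockdowns and 97, 10 and 32 in the controls.

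Cxcl5, which encodes another neutrophil attractant that binds Cxcr2, was not higher in the knockdowns as a group. It stood at 63.8, 21.3 and 49.0 in knockdown replicates 1, 2 and 3, against 49.5, 42.6 and 50.6 in the controls. Knockdown replicate 1 was above and replicate 2 below every control, with 5 estimated reads in knockdown replicate 2. The means were 44.7 ± 21.6 in the knockdowns and 47.5 ± 4.32 in the controls (SD, n = 3 each; log2 fold change -0.22, SE 0.42, limma adjusted p = 0.752), and without knockdown replicate 2 the log2 fold change turned to 0.23 (SE 0.20, limma adjusted p = 0.344). Cxcl1 and Cxcl5 share a chemokine cluster on chromosome 5 in which Cxcl2 and Cxcl3 were listed at 0 in every library. Cxcl15, next to Cxcl1, had 5.65, 8.50 and 4.97 in the knockdowns, against 5.96, 10.0 and 6.32 in the controls.

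Cxcl10, an interferon-induced attractant of activated T cells that binds Cxcr3, was near 0. It stood at 4.52, 0 and 3.55 in knockdown replicates 1, 2 and 3, against 0, 0 and 1.81 in the controls, from 8, 0 and 5 estimated reads against 0, 0 and 2. Knockdown replicates 1 and 3 exceeded every control, while knockdown replicate 2 was listed at 0, where a floor of 3 reads allows a value of up to 12.8. The groups overlapped and the gene was not tested (exact two-sided permutation p = 0.4). Its cluster neighbour Cxcl9, also induced by interferon, had 1.13, 4.29 and 1.42 in the knockdowns, against 1.29, 2.51 and 0 in the controls.

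Cx3cl1 encodes fractalkine, a membrane-anchored chemokine that the proteases Adam10 and Adam17 release. It stood at 919, 493 and 903 in knockdown replicates 1, 2 and 3, against 842, 754 and 672 in the controls. Knockdown replicates 1 and 3 lay just above all controls and replicate 2 below them, so the groups overlapped. The means were 772 ± 241 in the knockdowns and 756 ± 84.8 in the controls (SD, n = 3 each; log2 fold change -0.02, SE 0.28, limma adjusted p = 0.968). When knockdown replicate 2 was left out, Cx3cl1 passed in the higher direction, with a small log2 fold change of 0.27 (SE 0.08, limma adjusted p = 0.0184). With all 6 libraries its log2 fold change turned positive under upper-quartile scaling (0.04) and library weights (0.29). It was also positive without control replicate 1 (0.06), so its direction depended on the processing and on the libraries kept.

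**Figure D2:**
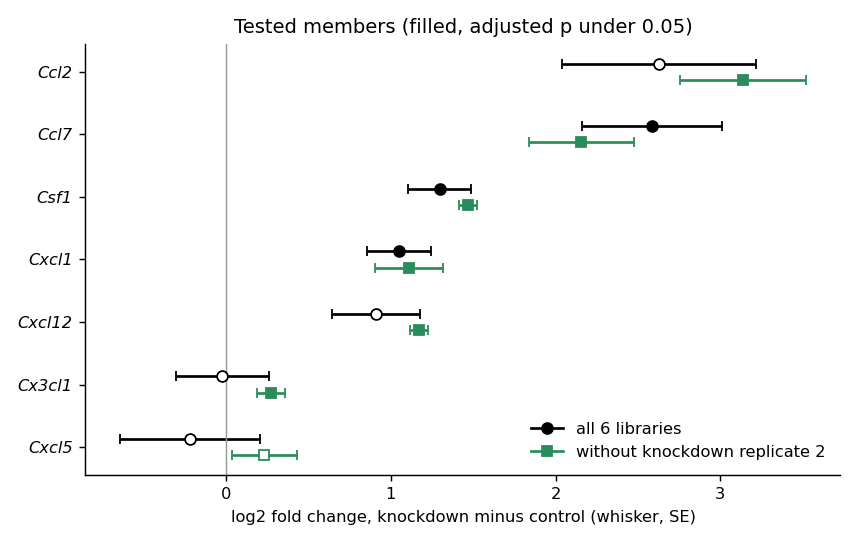
Log2 fold change, knockdown minus control (x axis), of the 7 tested genes with all 6 libraries (black circles) and without knockdown replicate 2 (green squares); whiskers are SEs and filled markers passed at an adjusted p under 0.05. Csf1, Ccl7 and Cxcl1 are filled in both fits, Ccl2, Cxcl12 and Cx3cl1 only without that library, and Cxcl5 in neither.

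Set among all genes tested, the genes spread from the upper tail to the middle. The log2 fold changes of Ccl2 and Ccl7 lay at percentiles 99.3 and 99.2 of the 12085 genes, Csf1 at 95.0, Cxcl1 at 92.3 and Cxcl12 at 89.7. Cx3cl1 and Cxcl5 lay at percentiles 48.4 and 35.7.

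**Figure D3:**
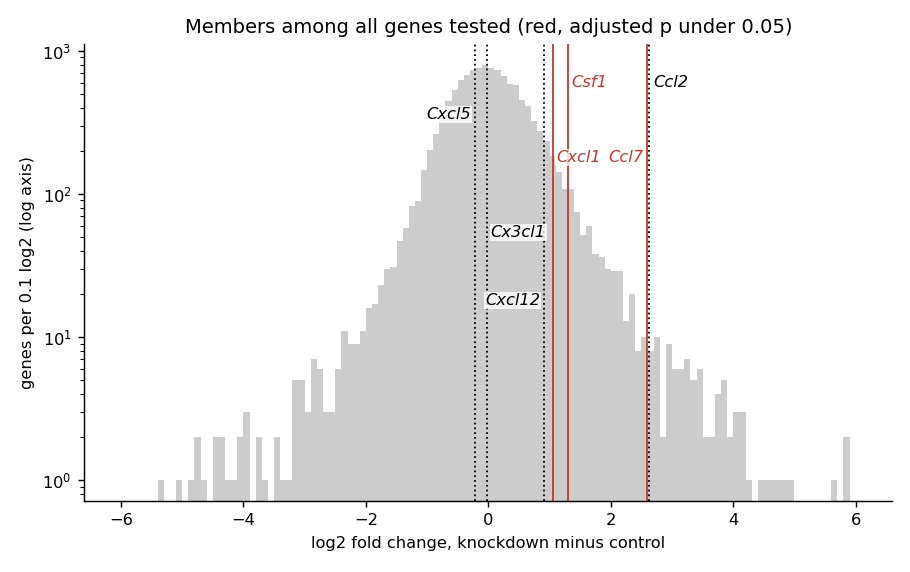
Histogram of the log2 fold change, knockdown minus control (x axis), of 12085 tested genes, as genes per bin of 0.1 (y axis, log scale); vertical lines mark the 7 genes, solid red where the adjusted p is under 0.05 and dotted black elsewhere. Ccl2 and Ccl7 lie at 2.63 and 2.59 in the upper tail, and Cx3cl1 and Cxcl5 at -0.02 and -0.22 near the centre.

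Knockdown replicate 2 differed from the other knockdowns in a way that moved with transcript length. Set against the mean of the other 2 knockdowns, its level of the 2724 genes with the shortest transcripts was higher (median log2 difference 0.81), and that of the 2723 genes with the longest was lower (-0.84). Ccl7, with a transcript of 801 nt, was 1.30 log2 units higher in that library, whereas Ccl2, with a transcript of 813 nt, differed by -1.52. The other differences were -0.18 for Cxcl1, -1.36 for Cxcl5, -0.79 for Cxcl12, -0.88 for Cx3cl1 and -0.52 for Csf1. Its part in the differences between groups was not tested beyond leaving the library out.

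**Figure D4:**
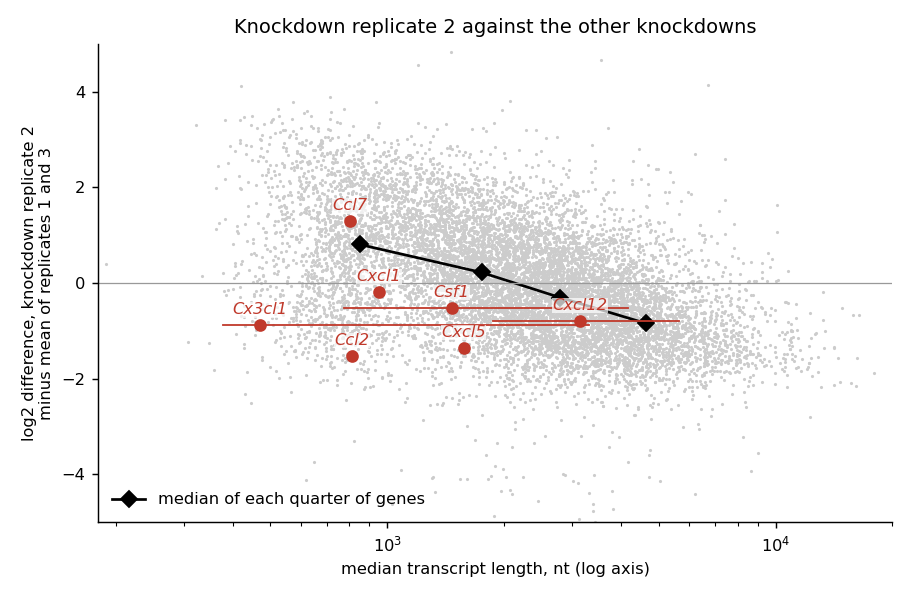
Log2 difference between knockdown replicate 2 and the mean of knockdown replicates 1 and 3 (y axis) against the median length of protein-coding transcripts in nt (x axis, log scale); grey dots are tested genes, black diamonds the medians of 4 equal bins of genes by length, and red points the 7 genes, with a red line from the shortest to the longest transcript. Ccl7 lies above 0 and Ccl2, of nearly the same length, below it.

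Start-site sequences were at hand for 5 of the 9 genes (RefSeq, build GRCm38.p6, 250 bases before to 50 after the start): Csf1, Cxcl1, Cxcl10, Cxcl12 and Cx3cl1. They were searched on both strands for the NF-kappaB consensus (GGG, a purine, a pair of any bases, a pair of pyrimidines, CC), the AP-1 motif TGANTCA and the interferon response motif GAAANNGAAA. Of 32851 windows of this length, 8.46, 7.81 and 3.44% hold them, in that order. Below are the windows of Csf1 and Cxcl1, which rose, of Cxcl12, the most abundant gene, and of Cxcl10, which stayed near 0, with matches in capitals. The Csf1 window (chr3:107760420-107760719, minus strand) and the Cxcl1 window (chr5:90890995-90891294, plus strand) each held the NF-kappaB consensus, starting at positions -154 and -71 from the start site. The Cxcl1 letters match on both strands, shifted by a base. The Cxcl10 window (chr5:92348840-92349139, minus strand) held all of these motifs: the interferon response motif at -213, the NF-kappaB consensus at -159 and, in overlapping matches, at -104 and -103, and the AP-1 motif at -74. The Cxcl12 window (chr6:117168285-117168584, plus strand) held none of them, nor did the Cx3cl1 window. A match is a description of the letters and shows no binding.
Csf1: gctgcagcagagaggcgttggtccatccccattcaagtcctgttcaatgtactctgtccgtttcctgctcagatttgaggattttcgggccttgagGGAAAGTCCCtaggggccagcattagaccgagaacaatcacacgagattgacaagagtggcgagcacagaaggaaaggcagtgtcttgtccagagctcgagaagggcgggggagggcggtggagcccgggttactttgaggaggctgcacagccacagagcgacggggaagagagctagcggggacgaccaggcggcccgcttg
Cxcl1: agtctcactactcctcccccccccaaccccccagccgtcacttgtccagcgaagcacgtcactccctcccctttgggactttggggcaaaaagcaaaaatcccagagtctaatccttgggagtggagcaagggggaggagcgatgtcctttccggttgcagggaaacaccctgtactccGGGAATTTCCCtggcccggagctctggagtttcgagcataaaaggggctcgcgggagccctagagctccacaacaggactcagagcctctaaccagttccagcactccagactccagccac
Cxcl12: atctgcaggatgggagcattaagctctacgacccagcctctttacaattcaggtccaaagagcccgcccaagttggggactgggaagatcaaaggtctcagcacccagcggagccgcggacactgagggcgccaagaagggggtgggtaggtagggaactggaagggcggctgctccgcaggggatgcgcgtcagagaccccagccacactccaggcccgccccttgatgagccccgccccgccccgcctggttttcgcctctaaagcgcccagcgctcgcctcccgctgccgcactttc
Cxcl10: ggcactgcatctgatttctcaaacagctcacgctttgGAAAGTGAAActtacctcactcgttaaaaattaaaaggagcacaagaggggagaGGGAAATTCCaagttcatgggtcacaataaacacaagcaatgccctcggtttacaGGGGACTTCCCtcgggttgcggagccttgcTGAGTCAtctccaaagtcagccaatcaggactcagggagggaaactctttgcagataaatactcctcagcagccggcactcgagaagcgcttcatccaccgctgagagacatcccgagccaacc

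The same windows held 16 CpG dinucleotides in Csf1, 10 in Cxcl1, 10 in Cxcl10, 20 in Cxcl12 and 19 in Cx3cl1, against a median of 7 and quartiles of 3 and 20 over all windows. All of the 5 lay above the median, and the genes with the highest levels, Cxcl12, Cx3cl1 and Csf1, had the highest counts. The windows with the NF-kappaB consensus belonged to genes that rose (Csf1, Cxcl1) and to a gene near 0 (Cxcl10).

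Most other chemokine genes were listed at or near 0. Of 32 further chemokine genes, 31 were in the table, 13 were listed at 0 in all 6 libraries and 5 could be tested, of which 0 rose and 1 fell (limma; 0 higher and 1 lower at an unadjusted p under 0.05), with a median log2 fold change of 0.49. Without knockdown replicate 2 only 3 of them passed the filter, Ccl17 and Cxcl16 dropping out. Of these, 2 fell and 0 rose (limma), in the fit where 26.1% of all genes fell and 23.8% rose. The gene that fell was Ccl6, which encodes a CC chemokine of rodents. It stood at 3.39, 8.50 and 2.83 in knockdown replicates 1, 2 and 3, against 25.9, 22.6 and 31.6 in the controls. The groups did not overlap, and the log2 fold change was -2.34 (SE 0.43, limma adjusted p = 0.0416). Ccl6 passed the filter only through the controls (knockdown mean 4.91). Ccl6 also passed without knockdown replicate 2 but missed the threshold without any other library (limma adjusted p from 0.121 to 0.219). Ccl6 lies 2 genes from Ccl5 on chromosome 11, next to Ccl9. Ccl9, a choice made with its values known, had 172, 349 and 172 in knockdown cells and 314, 261 and 247 in the controls, and its groups overlapped (log2 fold change -0.32, limma adjusted p = 0.547). It fell when knockdown replicate 2 was left out (-0.66, limma adjusted p = 0.000429).

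Most receptors of these ligands were low. Of 24 chemokine and Csf1 receptor genes, 4 passed the filter, and 0 rose and 0 fell (limma; 1 higher and 0 lower at an unadjusted p under 0.05). The most abundant was Ackr3, listed as Cxcr7, an atypical receptor that takes up Cxcl12. It stood at 1078, 667 and 995 in knockdown replicates 1, 2 and 3, against 622, 576 and 617 in the controls. All knockdowns lay above all controls, without a call (log2 fold change 0.56, SE 0.22, limma adjusted p = 0.225). Leaving out knockdown replicate 2, Ackr3 passed, at 0.78 (limma adjusted p = 1.79e-06). Cxcr4, the signalling receptor of Cxcl12, had 7.35, 4.25 and 4.97 in the knockdowns, against 6.21, 0 and 5.42 in the controls. Cxcr2, the receptor of Cxcl1 and Cxcl5, stood at 70.3, 177 and 96.8 in the knockdowns, against 81.3, 73.7 and 88.7 in the controls (log2 fold change 0.39, SE 0.36, limma adjusted p = 0.520). Csf1r, the receptor of Csf1, had 6.22, 8.50 and 5.68 in the knockdowns, against 2.59, 5.01 and 0.903 in the controls.

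Markers of macrophages and other leukocytes, a known source of many chemokines, were mostly low. Of 12, 3 passed the filter and 0 changed in either direction (limma; 1 higher and 0 lower at an unadjusted p under 0.05). Their summed level ranged from 98.8 to 242 in the knockdowns and from 102 to 127 in the controls, most of it Cd14, and the high end was knockdown replicate 2. The defining markers Emr1 (Adgre1), Tyrobp and Cd3e were listed at 0 in all 6 libraries, and Ptprc at 0.565 in knockdown replicate 1 and at 0 in the others. Lyz2, a lysozyme gene of myeloid cells, was higher in every knockdown, at 18.7, 34.01 and 19.9, against 11.1, 12.5 and 13.5 in the controls, without a call (log2 fold change 0.87, limma adjusted p = 0.202). Aif1, a macrophage gene, had 0.565, 12.8 and 1.42 in the knockdowns, against 1.04, 0 and 0 in the controls. Endothelial markers summed to 106 to 157 in the knockdowns and 87.7 to 108 in the controls, most of it Tek. Pecam1, Cdh5, Kdr and Emcn stood at 6.22 or less in every library. Tek was not called with all libraries (log2 fold change 0.42, limma adjusted p = 0.316). It passed without knockdown replicate 2 (0.57, limma adjusted p = 0.00474), in the fit where 23.8% of all genes rose. Epithelial markers summed to 17.1 to 38.3 in the knockdowns and 15.0 to 31.6 in the controls, most of it Cdh1. What part any of these cells have in the results was not tested.

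Other cytokine genes included more with high log2 fold changes, and with all libraries only Il33 passed. Of 18 genes of colony stimulating factors and inflammatory cytokines, 9 were tested, 1 rose and 0 fell, and the median log2 fold change was 1.30. That median is partly set by the filter. Il6, Il33, Lif and Tslp reached the mean of 10 only through the knockdowns (control means 4.86, 6.73, 7.93 and 3.27). Il34, with means of 6.90 in the knockdowns and 11.5 in the controls, was not tested with all libraries. Leaving out knockdown replicate 2, 4 of 9 tested genes rose (Il6, Il11, Lif and Il33) and Kitl fell, in the fit where 49.9% of all genes were called. There Il34 passed the filter and Tslp did not. Il33, which encodes an alarmin cytokine, stood at 21.5, 21.3 and 22.0 in knockdown replicates 1, 2 and 3, against 5.44, 7.52 and 7.23 in the controls. Its groups were far apart and each of them was tight (log2 fold change 1.56, SE 0.27, limma adjusted p = 0.0327). Few reads lay behind these values. The 7.52 of control replicate 2 equals the floor of 3 reads, and 1 read is worth 4.25 in knockdown replicate 2. Il33 also passed without knockdown replicate 2 and lost the call without any other library (limma adjusted p from 0.129 to 0.172). Il6, picked with its values in view, reached 20.9, 12.8 and 27.0 in knockdown cells, against 4.14, 5.01 and 5.42 in control cells, and missed the threshold narrowly (log2 fold change 1.80, SE 0.36). It passed without knockdown replicate 2 (2.09, limma adjusted p = 0.000691).

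Genes of the NF-kappaB pathway went both ways around a median near that of all genes. Of 20 tested members, 0 rose and 0 fell (limma; 1 higher and 0 lower at an unadjusted p under 0.05), and the median log2 fold change was 0.03. Leaving out knockdown replicate 2 gave 5 that rose and 3 that fell, in the fit where 49.9% of all genes were called. The most abundant were Vcam1, an adhesion molecule gene, and Ikbkg, which encodes the scaffold subunit of the kinase that releases NF-kappaB. Vcam1 stood at 1813, 1161 and 1703 in the knockdowns, against 1838, 1641 and 1736 in the controls, and Ikbkg at 1262, 1129 and 1264, against 1312, 1362 and 1430. In Vcam1 the groups overlapped, whereas each knockdown value of Ikbkg was below each control (log2 fold change -0.17, SE 0.14, limma adjusted p = 0.483).

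Interferon regulatory factors and STATs drive interferon-induced chemokines such as Cxcl10. In a list of their genes that also held Socs1 and Socs3, 1 of 12 tested members rose and 0 fell, with a median of 0.15. Without knockdown replicate 2, 5 rose (Socs3 among them) and 1 fell, in the fit where 49.9% of all genes were called. The member called with all libraries was Irf5, a transcription factor gene of the inflammatory response, at 23.7, 25.5 and 21.3 in knockdown replicates 1, 2 and 3, against 3.37, 5.01 and 1.81 in the controls. The groups were far apart (log2 fold change 2.54, SE 0.37, limma adjusted p = 0.0220), but Irf5 passed the filter only through the knockdowns (control mean 3.39). As with Il33, the call held without knockdown replicate 2 and was lost without any other library (limma adjusted p from 0.0740 to 0.124). Of 11 tested genes of proteases and surface proteins that process or hold chemokines, 0 rose and 0 fell (limma; 1 higher and 3 lower at an unadjusted p under 0.05), with a median of -0.35. Without knockdown replicate 2 the counts were 3 that rose and 5 that fell, again beside 49.9% of all genes called. The most abundant, Hspg2, which encodes the heparan sulfate proteoglycan perlecan, had 17587, 7563 and 21688 in the knockdowns, against 18088, 20474 and 18433 in the controls. Mmp14, a membrane metalloprotease gene, stood at 8464, 12809 and 8142 in the knockdowns, below its controls of 13298, 13150 and 13139, without a call (log2 fold change -0.46, SE 0.23, limma adjusted p = 0.320) except when knockdown replicate 2 was left out (-0.67, limma adjusted p = 1.02e-06).

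**Figure D5:**
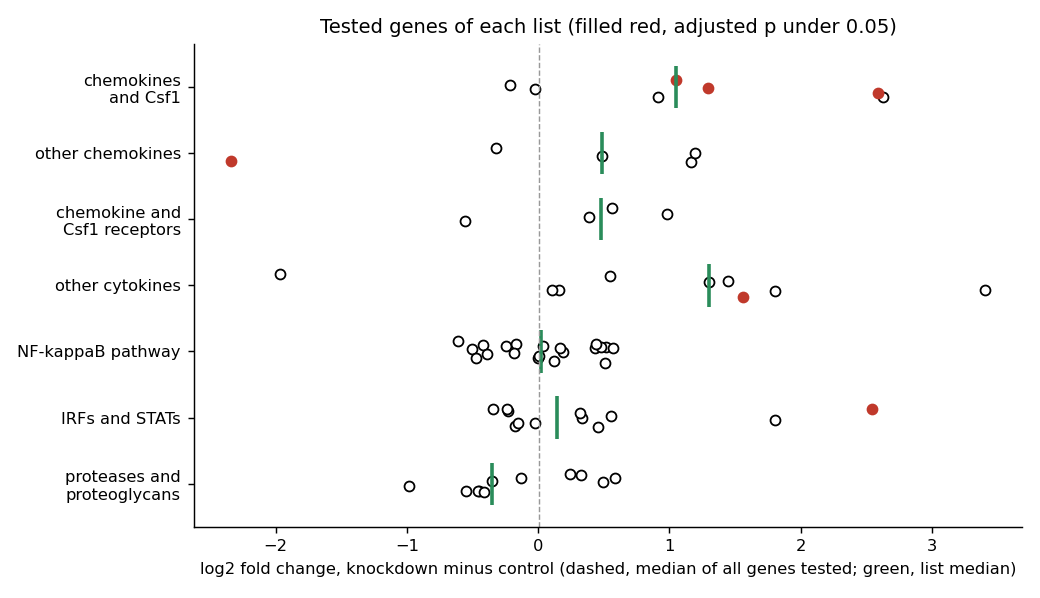
Log2 fold change, knockdown minus control (x axis), of each tested gene in the set of chemokines and Csf1 and in 6 related lists, one above the other, with points spread vertically for legibility; filled red points passed at an adjusted p under 0.05, green bars are list medians and the dashed line is the median of all genes tested. Medians run from 1.30 for other cytokines and 1.05 for chemokines and Csf1 to -0.35 for proteases and proteoglycans. Ccl7, Irf5, Ccl17, Cxcl16 and several cytokine genes passed the filter only through the knockdowns, and Ccl6 only through the controls. The list of interferon regulatory factors and STATs also holds Socs1 and Socs3.

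Profiles like those of the 3 most abundant members were sought in 10095 genes whose mean reached 50. Symbols in the usual form of predicted genes or clones were left out. Genes were compared by the root mean square difference of log2 values centred on each gene's own mean over the 6 libraries. Those nearest to Csf1 were Kifc5b, Nrg1 and D4Bwg0951e (differences of 0.060, 0.077 and 0.085 log2 units). Those nearest to Cxcl12 were Ccng1, Mad2l1 and Ptprk (0.062, 0.064 and 0.064), and those nearest to Cx3cl1 were Wdr76, Mmp16 and Fhdc1 (0.041, 0.059 and 0.062). Ccng1, for example, stood at 5996, 3435 and 5921 in the knockdowns, against 2807, 2584 and 2438 in the controls, with the same dip in knockdown replicate 2 as Cxcl12.

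Genes next to the members, picked here with their values in view, went different ways. Ahcyl1, beside Csf1, stood at 4347, 3933 and 4318 in the knockdowns, against 2829, 3060 and 2887 in the controls, with all knockdowns higher but no call (log2 fold change 0.52, limma adjusted p = 0.0998). Eps8l3, on the other side of Csf1, stood at 31.1, 8.50 and 33.4 in the knockdowns, against 70.5, 70.2 and 68.8 in the controls. Leaving out knockdown replicate 2, Ahcyl1 passed in the higher direction (0.57, limma adjusted p = 3.77e-06) and Eps8l3 in the lower (-1.09, limma adjusted p = 0.000291). Zfp637, the gene after Cxcl12, stood at 901, 3264 and 790 in the knockdowns, against 1053, 960 and 1009 in the controls, high in knockdown replicate 2 alone, and was called lower without that library (-0.25, limma adjusted p = 0.00975). RefSeq places other genes over Csf1 (Gm40121), Cx3cl1 (Gm51543), Ccl5 (Gm32650) and Cxcl10 (Art3), and the sources used here give no strand setting for the counting, so reads of such pairs cannot be told apart. Of the 36-base stretches of each member's transcripts, at most 0.871% (Cxcl5) occurred in a transcript of another gene.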

How the data were processed

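RNA was measured by sequencing in 6 libraries. Trizol extraction and Illumina TruSeq library preparation are given per the labels' protocols. The submitters' processing notes name RSEM 1.2.12, Bowtie 1.0.0 and build mm9. The authors deposited a normalized signal per gene and library, estimated counts divided by a size factor (median normalization, per the file name), and a table of differential genes with a fold, the authors' deposited ratio of means, whose test the sources used here do not name. The commonest value above 0 in a library was taken as 1 read; 88.4 to 90.4% of values up to 20 reads were whole multiples within 0.1 read, too few for a count test. Floors of 3 reads and estimated reads allow for counting error alone.

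A limma 3.58.1 model (R 4.3.3) of log2(value + 1) was fitted to genes whose mean reached 10 (trend and robust options, two-sided, Benjamini-Hochberg over all genes, threshold 0.05). The code was run on simulated libraries that all had the spread of the controls. That run held no outlying library like knockdown replicate 2, so it says nothing about calls in its presence. The comparison asks how gene expression in these cells differs after knockdown of both ligases. Alternatives were pseudocounts of 0.5 and 5, filters, scalings, the replicate number as a block, library weights (limma's gene-by-gene method) and leaving out each library. Named from each of 6 related lists were at most 4 called members, by adjusted p, or failing any call the 2 of highest mean. The members and lists were chosen with earlier results of these data known. Other genes' names and order come from RefSeq (GRCm38.p6) and transcript lengths from GENCODE M21, newer builds than the authors' and not used for the files' coordinates.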

Additional observations from a re-analysis of the deposited data

How the results depend on the processing

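All 3 rises (Csf1, Ccl7, Cxcl1) kept their direction under every alternative that could be computed, and 0 members were called lower under any (limma; at an unadjusted p under 0.05, 0 with all libraries and 0 without knockdown replicate 2). The count of members called higher, 3 with all libraries, ranged from 0 to 6 when a library was left out, and was 6 with library weights, 1 under total scaling, 1 with a mean of at least 50 (which drops Ccl7, Cxcl1 and Cxcl5) and 0 with the replicate block. Over all genes, 387 were called higher and 215 lower; leaving out a library gave 0 to 2855 and 0 to 3136, library weights 3048 and 3254, total scaling 184 and 118, upper-quartile scaling 130 lower, and the replicate block 0 and 0 (1866 genes at an unadjusted p under 0.05). Without control replicate 1, 2 or 3 limma called 0 genes (1495, 1529 and 1475 at an unadjusted p under 0.05). The causes were not tested. The log2 fold change of Cxcl5 ranged from -0.54 to 0.23 when a library was left out, turning positive without knockdown replicate 2, and was 0.26 with library weights. That of Cx3cl1 ranged from -0.17 to 0.27, positive without knockdown replicate 2 or control replicate 1 (0.06), and was 0.041 with upper-quartile scaling and 0.29 with library weights. Per kilobase of the longest transcript, an option added after seeing the data, Cxcl12 averaged 3481 in the knockdowns and 1795 in the controls, Cx3cl1 233 and 228, and Csf1 899.9 and 361. The library weight of knockdown replicate 2 was 0.0172, so that alternative comes close to leaving it out. The replicate numbers were not taken as pairs, since deviations of same-numbered libraries correlated across genes at 0.17, -0.05 and -0.05 and, of the 3 knockdowns, replicate 1 alone correlated best with its own number. Depth limits Ccl5 and Cxcl10 throughout, Ccl2 and Ccl7 in control replicate 2 (3 reads each) and Cxcl5 in knockdown replicate 2 (5 reads). Ccl6 in knockdown replicate 2, Il6 in control replicate 2 and Irf5 in control replicates 2 and 3 lie under the floor of 3 reads. Il6 in knockdown replicate 2 and Il33 in control replicate 2 lie at that floor.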

Other observations

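Secreted factors outside the set, named after their values were seen, did not all move like Csf1. Kitl, which encodes the ligand of the receptor Kit, stood at 1089, 302 and 1335 in knockdown replicates 1, 2 and 3, against 3050, 3022 and 2835 in the controls. Every knockdown lay far below every control, without a call with all 6 libraries (log2 fold change -1.96, limma adjusted p = 0.129) and with one without knockdown replicate 2 (-1.30, limma adjusted p = 3.52e-07). Il11, a cytokine gene of the interleukin-6 family, stood at 31.4, 38.3 and 33.4 in the knockdowns, against 14.1, 20.2 and 8.16 in the controls. All of its knockdown values were higher, again with a call only without knockdown replicate 2 (limma adjusted p = 0.116 with all libraries and 0.0132 without it). Ccl17, the gene beside Cx3cl1, stood at 5.65, 51.0 and 4.26 in the knockdowns, against 3.88, 5.01 and 4.52 in the controls, high in knockdown replicate 2 alone. Irf7, a regulator of interferon responses, was highest there too, at 96.1, 655 and 104 in the knockdowns, against 33.7, 62.6 and 69.6 in the controls. Its other knockdown values also exceeded every control, and it passed without knockdown replicate 2 (log2 fold change 0.91, limma adjusted p = 0.0224) but not with it (1.81, limma adjusted p = 0.280).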
